A study of Mus musculus with 4 samples.

Results

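The genes described here are 42 autosomal protein-coding genes of the germline and of meiosis, chosen by symbol, out of 20560 autosomal protein-coding genes in the RefSeq annotation of mm10. All 42 were found in that annotation, on 17 of the 19 autosomes. They were chosen with earlier results of these data known. The histone mark H3K9me3, found at silent chromatin, was profiled over them by chromatin immunoprecipitation and sequencing. The samples were a Suv39h1-KO library, from mouse CD8+ T cells without the H3K9 methyltransferase gene Suv39h1, and a WT library, from wild-type cells of littermates per the series title, both on a C57BL/6 background. Both cultures were activated through CD3 and CD28 and given interleukin-2 for 3 days. There was 1 H3K9me3 library for each genotype, deposited as a list of islands, that is, stretches called as enriched. The sources used here do not give the number of animals, their age or the kind of Suv39h1 allele.

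With 1 library per genotype no test between the genotypes was made, and the values below describe these 2 libraries. An island says that a stretch passed the authors' threshold, and a stretch without an island may still carry some of the mark. In a culture of many cells, more cells with the mark and more of the mark per cell cannot be told apart. The KO list held 25424 islands with 10020253 reads and the WT list 12371 islands with 5547695 reads. The number of reads outside islands is unknown here, so read counts are not compared between genotypes. None of 7 T cell marker genes (Cd3d, Cd3e, Cd3g, Cd8a, Cd8b1, Cd2 and Cd5) had an island in either list, which says nothing about their expression. Of 6 marker genes of other blood cells, only Ncam1, which is 297 kb long, had an island, with 10 kb of cover in each list. Of all autosomal genes, 14.5% in KO and 14.8% in WT had an island in the gene or the 2 kb on each side.

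Germline genes are used in the cells that become eggs and sperm and are held silent in most somatic cells. Many have a CpG-rich promoter that is DNA-methylated in somatic cells, and the PRC1.6 complex, which reads E2F sites through E2F6 and E-boxes through MGA and MAX, is known in mouse embryonic stem cells to repress many of them. In meiosis, cohesin and axis proteins organise the chromosomes, SPO11 cuts the DNA, DMC1 and its partners repair it from the homologous chromosome, and the synaptonemal complex joins the homologues. The piRNA pathway uses PIWI proteins and Tudor domain proteins to silence transposable elements in the germline.

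The sequences of 7 gene starts are shown, those of every gene with a listed start that had an island within 2 kb of it in either list. Only the first, that of Mael, lay under an island itself, in WT. Each runs 5′ to 3′ in the direction of the gene, from 250 bases before the start to 50 from it on, and comes from RefSeq, assembly GRCm38.p6, which mm10 names. Capitals mark CACGTG, the palindromic E-box, and TCCCGC on either strand, the core of the E2F site.
Mael: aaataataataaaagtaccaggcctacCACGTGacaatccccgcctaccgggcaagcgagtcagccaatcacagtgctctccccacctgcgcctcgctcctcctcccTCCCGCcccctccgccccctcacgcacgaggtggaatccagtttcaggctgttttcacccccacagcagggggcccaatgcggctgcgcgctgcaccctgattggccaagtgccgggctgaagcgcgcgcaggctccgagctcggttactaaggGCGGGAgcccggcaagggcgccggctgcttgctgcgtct
Dmc1: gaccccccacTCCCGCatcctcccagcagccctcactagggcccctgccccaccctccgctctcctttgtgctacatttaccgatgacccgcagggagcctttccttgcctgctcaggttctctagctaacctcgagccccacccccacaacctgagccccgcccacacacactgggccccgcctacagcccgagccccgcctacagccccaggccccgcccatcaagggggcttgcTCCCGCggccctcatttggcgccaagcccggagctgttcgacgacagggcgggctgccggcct
Sycp1: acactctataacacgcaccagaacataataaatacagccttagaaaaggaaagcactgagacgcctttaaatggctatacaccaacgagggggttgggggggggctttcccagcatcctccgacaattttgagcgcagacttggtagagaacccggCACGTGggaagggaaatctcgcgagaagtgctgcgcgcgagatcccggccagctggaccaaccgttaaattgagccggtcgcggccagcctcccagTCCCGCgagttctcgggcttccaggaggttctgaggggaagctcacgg
Stk31: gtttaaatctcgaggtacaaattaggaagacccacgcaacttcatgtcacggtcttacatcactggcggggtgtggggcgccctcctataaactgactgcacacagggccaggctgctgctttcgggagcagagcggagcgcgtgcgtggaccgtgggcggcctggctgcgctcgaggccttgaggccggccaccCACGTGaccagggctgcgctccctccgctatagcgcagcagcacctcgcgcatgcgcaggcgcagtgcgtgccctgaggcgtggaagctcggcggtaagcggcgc
Asz1: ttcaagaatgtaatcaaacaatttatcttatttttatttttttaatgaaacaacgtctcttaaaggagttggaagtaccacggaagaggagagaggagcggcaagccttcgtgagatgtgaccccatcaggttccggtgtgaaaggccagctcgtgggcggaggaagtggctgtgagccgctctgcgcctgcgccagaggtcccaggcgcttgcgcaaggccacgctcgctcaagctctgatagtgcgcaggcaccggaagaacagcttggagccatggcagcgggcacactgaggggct
Sycp2: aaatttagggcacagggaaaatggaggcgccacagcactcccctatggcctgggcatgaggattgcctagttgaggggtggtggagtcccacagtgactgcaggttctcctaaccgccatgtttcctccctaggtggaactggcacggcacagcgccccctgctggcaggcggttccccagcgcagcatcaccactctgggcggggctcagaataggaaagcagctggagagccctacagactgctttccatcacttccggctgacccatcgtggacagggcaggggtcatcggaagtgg
Tdrkh: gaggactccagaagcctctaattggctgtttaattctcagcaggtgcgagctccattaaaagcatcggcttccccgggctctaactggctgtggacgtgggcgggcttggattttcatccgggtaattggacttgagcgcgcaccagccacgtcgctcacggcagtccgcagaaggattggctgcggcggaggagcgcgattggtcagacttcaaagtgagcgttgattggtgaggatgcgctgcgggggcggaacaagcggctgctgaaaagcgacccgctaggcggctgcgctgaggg

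These stretches lie at chr1:166238695-166238994 on the minus strand (Mael), chr15:79605060-79605359 on the minus strand (Dmc1), chr3:102936051-102936350 on the minus strand (Sycp1) and chr6:49395289-49395588 on the plus strand (the first of 2 listed starts of Stk31). The others lie at chr6:18109012-18109311 on the minus strand (Asz1), chr2:178407609-178407908 on the minus strand (Sycp2) and chr3:94412994-94413293 on the plus strand (Tdrkh). They hold between 10 CG dinucleotides (Sycp2) and 29 (Stk31). The promoters of Asz1, Sycp2 and Tdrkh hold neither motif. Promoters were listed for 37 of the 42 genes. An E-box was found in the promoter of 16 of these 37 genes (43.2%), against 9.01% of 16457 autosomal genes with a listed promoter of the same length. The E2F core was found in 16 of the 37 (43.2%), against 29% of the 16457, and both in 9 genes. No match of one motif overlapped a match of the other. Among genes with an island the E-box was found in 8 of 16 and the E2F core in 6 of 16, and among those without in 8 of 21 and 10 of 21. Both motifs contain a CG, and the 48 listed promoters of these genes held a median of 19.5 CG, against 14 over all 20085 promoters. The motif shares were not matched for CG content, and the 16457 genes include olfactory and vomeronasal receptor genes. A match describes these letters only and does not show that a factor binds there.

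Islands lay over these genes more often than over autosomal genes as a whole, in both genotypes. The list was chosen with earlier results of these data known, so the shares describe these 42 genes only. Counting a gene when at least 1 bp of the gene or of the 2 kb on each side was in an island, 14 of the 42 genes had an island in KO, against 14.5% of all 20560 genes, and 13 of 42 in WT, against 14.8% of all genes. As shares these were 33.3% in KO and 31% in WT. Without olfactory and vomeronasal receptor genes the shares of all genes were 12.3% in KO and 14% in WT. Both lists covered 9 genes (8.03% of all genes), KO alone covered 5 (6.52%) and WT alone 4 (6.77%), and 24 genes had no island in either. The genes were longer than most, with a median of 39.4 kb against 17.6 kb, so they were also read beside genes of like length. Of the 23 germline genes with a region of 30 to 100 kb, 9 had an island in KO, against 12.5% of all genes of that length, and 10 in WT, against 15.7%. Of 12 genes with a region of 10 to 30 kb, 2 had an island in KO and 0 in WT, against 5.9% in KO and 7.73% in WT for all genes of that length. Of 3 genes with a region under 10 kb, none had an island, against 14.7% in KO and 9.49% in WT for all genes of that length. Of 4 genes with a region of 100 kb or more, 3 had an island in each list, against 45.3% in KO and 45.5% in WT.

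**Figure D1:**
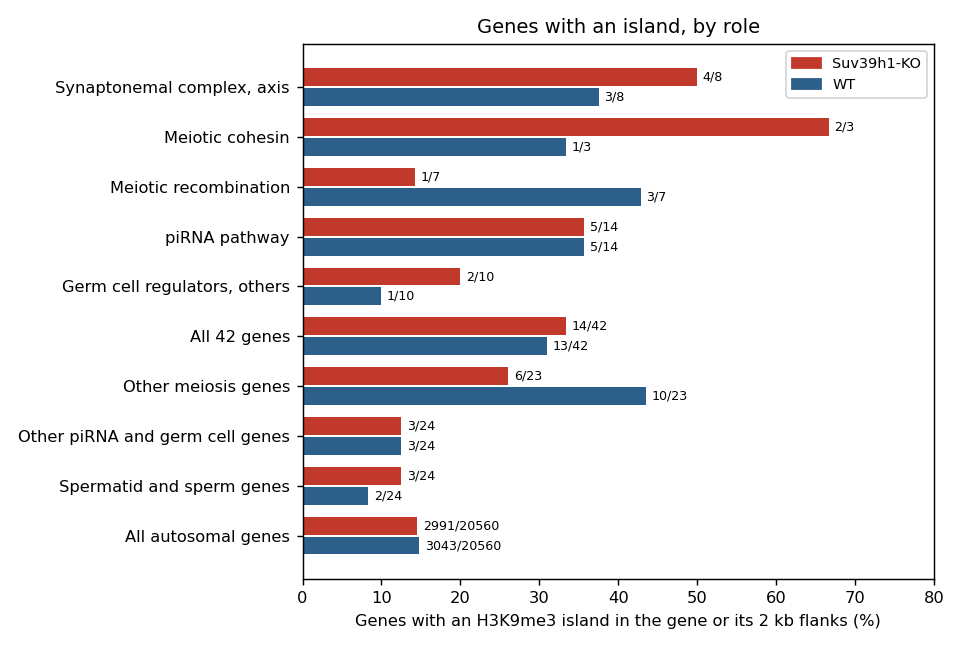
Share of genes (%) with an H3K9me3 island in the gene or its 2 kb flanks, in the Suv39h1-KO and WT lists, with counts beside the bars. The 42 germline and meiosis genes stand at 33.3% in KO and 31% in WT, and all autosomal genes at 14.5% in KO and 14.8% in WT.

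In total, islands covered 261 kb of the germline gene regions in KO and 319 kb in WT, which is 11.2% of their length in KO and 13.7% in WT. Over all autosomal genes the same shares were 6.72% in KO and 4.5% in WT. The KO list thus held more cover than the WT list over all genes and less over these 42. Cover was not read beside genes of like length. Among all genes with a region of 10 to 30 kb, 5.9% had an island in KO and 7.73% in WT. At 30 to 100 kb these shares were 12.5% in KO and 15.7% in WT. By gene, the KO minus WT difference ran from -22 kb at Hormad2 to 14.5 kb at Stag3. Sycp1, Mei4 and Stk31 held the most cover in both lists. The median gene of the 42 had no cover in either genotype.

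Among genes of the synaptonemal complex and chromosome axis, 4 of 8 had an island in KO, against 14.5% of all genes, and 3 of 8 in WT, against 14.8%. This group and those below are small, so their KO and WT counts are not set against each other. Sycp1, which encodes the transverse filament of the complex (chr3:102818499-102936100, minus strand), had the most cover of all 42 genes in both lists. It held 7 KO islands over 64.5 kb with 2748 reads, and 6 WT islands over 65.5 kb with 3010 reads. The islands filled 54.8% of the gene body in KO and 55.7% in WT, and 45 kb lay in islands of both lists. The KO islands lay between 1.6 and 96.1 kb downstream of the start and the WT islands between 12.1 and 118 kb. In both lists the cover was thus a row of separate islands with gaps, and 52.9% of the joint cover was shared. By covered length Sycp1 stood at rank 288 of all autosomal genes in KO and at rank 105 in WT.

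Sycp2, a component of the lateral element (chr2:178345295-178407776, minus strand), had 14.5 kb of KO cover in 2 islands and 13.5 kb of WT cover in 1 island. The KO island nearest the start began 1.16 kb downstream of it and the WT island 2.66 kb downstream, and they shared 4.50 kb. Hormad2, an axis protein that monitors unpaired chromosomes, had 3 kb in KO and 25 kb in WT, with the KO island lying wholly within the WT island. Its homologue Hormad1 had 7 kb in 1 KO island and no WT island, the nearest WT island lying 174 kb from its region. No island lay over Sycp3, Syce1, Syce2 or Tex12, which encode another lateral element protein and 3 central element proteins.

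Of the 3 meiotic cohesin genes, Smc1b (chr15:85064689-85131957) had 20 kb in 2 KO islands and 22.5 kb in 1 WT island. Only 3.50 kb was shared, because the KO islands lay nearer the start, at 3.46 to 26.5 kb, and the WT island at 23 to 45.5 kb. The part in both lists also lies at Fam118a, an overlapping gene, so an island there cannot be assigned to Smc1b alone. Stag3, a meiotic cohesin subunit, had 14.5 kb in 1 KO island and none in WT. That KO island began 2.49 kb downstream of the listed start. Rec8, the meiotic kleisin, had no island.

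Genes of meiotic recombination had an island in 1 of 7 cases in KO (14.3%), near the 14.5% of all genes. In WT 3 of 7 did, against 14.8% of all genes. Mei4, needed for the DNA breaks that start recombination, is 342 kb long and held 7 KO islands over 46 kb and 5 WT islands over 53 kb. All lay in the distal part of the gene or across its far end, no nearer to the start than 226 kb in KO and 192 kb in WT. Of the cover 19 kb was shared. The last KO island, chr9:82205001-82220500, lay mostly beyond the gene, and the last WT island, chr9:82201001-82213000, also ran past its end. Dmc1, the meiotic recombinase (chr15:79561497-79605159), had no KO island and 1 WT island of 5 kb with 234 reads. The WT island began 0.609 kb downstream of the start, so the promoter sequence printed above lay just outside it. Meiob, a single-stranded DNA binding protein of meiosis, had no KO island and 2 WT islands over 20 kb with 828 reads. The nearest KO island lay 1308 kb from its region. Its strand is not listed, so distance from the start is not given. Spo11, Prdm9, Msh4 and Msh5 had no island.

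Of 14 genes of the piRNA pathway, 5 had an island in KO and 5 in WT, of which 3 were covered in both. That is 35.7% in each list, against 14.5% of all genes in KO and 14.8% in WT. Mael, a piRNA pathway protein of the germ granules (chr1:166201385-166238744), had 7.50 kb in 1 KO island and 18.7 kb in 2 WT islands. The second WT island, chr1:166231001-166245500 with 559 reads, reached from 6.76 kb upstream of the start to 7.74 kb downstream of it. It covered all 300 bases of the promoter shown above, in WT, whereas the nearest KO island lay 16.7 kb downstream of the start. Asz1, a germ granule protein that sits on mitochondria, had 21.6 kb in 4 KO islands and 22.5 kb in 2 WT islands. The KO island upstream of Asz1 ended 0.94 kb before the start, and the 3 others lay in the gene or across its far end. Tdrd9, a helicase with a Tudor domain, had 6.35 kb in KO and 6.50 kb in WT at the far end of the gene, with 4 kb shared.

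Piwil1, a PIWI protein of meiotic and later male germ cells, had 9.47 kb in KO alone, in an island that also reaches Rimbp2. Tdrkh, a Tudor protein that also acts on mitochondria, had 0.758 kb in KO alone, at the edge of an island upstream of the gene that ended 1.24 kb before the start. Mov10l1, a helicase that feeds piRNA precursors into the pathway, had 12.7 kb in WT alone at its far end, and Tdrd12 8 kb in WT alone inside the gene. Piwil2, Piwil4, Ddx4, Tdrd1, Tdrd5, Tdrd6 and Tdrd7 had no island in either list. These 7 include the gene of the germ cell helicase VASA (Ddx4), whose region lay 348 kb from the nearest KO island and 36.9 kb from the nearest WT island.

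Of the 10 remaining genes, regulators and other germ cell proteins, Stk31 and Tex15 carried islands. That is 20% in KO, against 14.5% of all genes, and 10% in WT, against 14.8%. Stk31, a Tudor domain protein of germ cells (chr6:49395506-49469506), had 32 kb in 3 KO islands with 1309 reads and 46 kb in 5 WT islands with 2010 reads. The first KO island began 5.46 kb downstream of the start and the first WT island 1.96 kb downstream, and 19 kb was shared. Cover thus filled 43.2% of the gene body in KO and 60.8% in WT. Tex15, a protein of meiosis and transposon silencing, had 13.5 kb in KO alone. Dazl, the germ cell RNA-binding protein, and Sohlh1, Sohlh2, Dmrtb1, Brdt, Tex14, Tex101 and Slc25a31 had none. Just inside the rule in KO was Tdrkh, with 0.758 kb, and just outside it was Sohlh2, whose region ended 0.544 kb from a KO island.

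**Figure D2:**
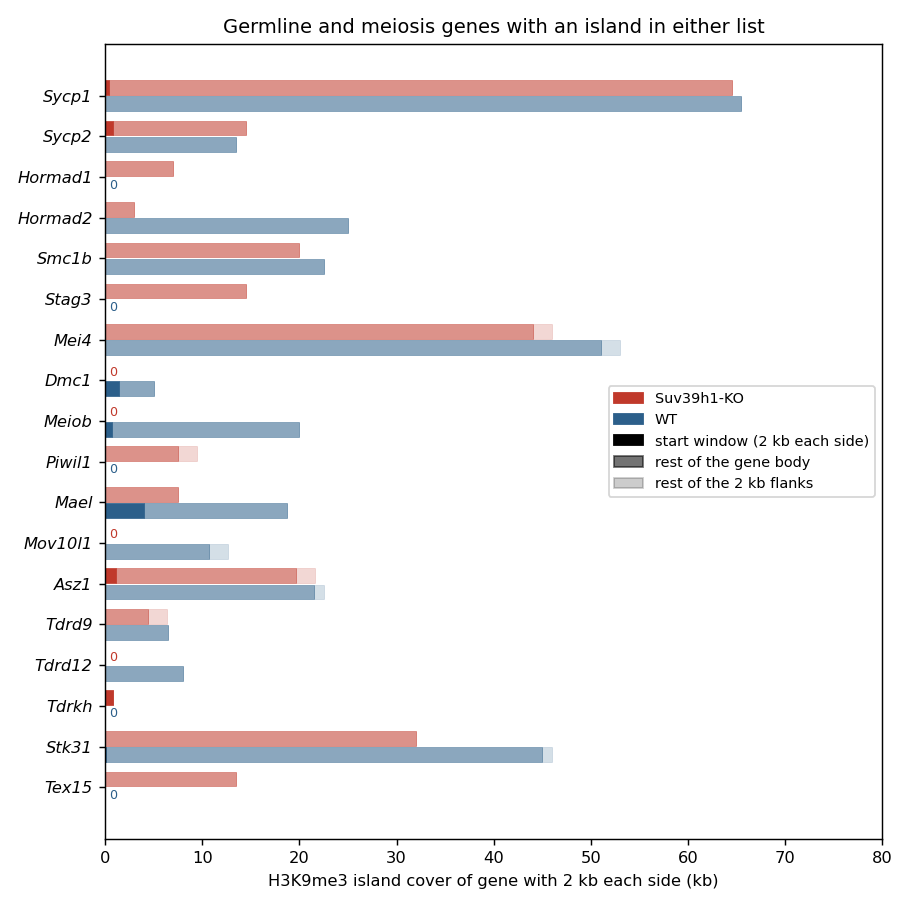
Island cover (kb) of the 18 germline or meiosis genes with an island, flanks of 2 kb included, Suv39h1-KO above WT, with darker shades for the window at the start and paler ones for the flanks. Sycp1 has 64.5 kb in KO and 65.5 kb in WT, and only Mael in WT has its whole start window covered.

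Away from the gene starts a larger share of the sequence was covered than over all genes, and little of the cover lay at the starts. Within 2 kb of a gene start, 4 of 42 genes had an island in KO (Sycp1, Sycp2, Asz1 and Tdrkh), against 7% of all genes, and 4 of 42 in WT (Dmc1, Meiob, Mael and Stk31), against 6.49%. For Meiob and the 4 other genes without a listed start, both gene ends were used. Olfactory and vomeronasal receptor genes add to this background, which without them was 4.42% in KO and 5.2% in WT. No gene of the 42 had an island near the start in both lists, against 2.35% of all genes, a share near that background. Among the 37 genes with a listed start the counts were 4 in KO, against 6.54% of all such genes, and 3 in WT, against 6.07%. At the promoter itself, 0 of 37 genes were covered in KO, against 4.22% of all genes, and 1 of 37, Mael, in WT, against 3.76%. Without receptor genes these backgrounds were 2.07% in KO and 2.44% in WT, so counts of 0 and 1 are not far from them.

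Measured as sequence, the windows around the starts were covered over 1.51% of their length in KO and 3.07% in WT, and the rest of the regions over 12.2% in KO and 14.8% in WT. Over all autosomal genes the start windows were covered over 3.94% in KO and 3.51% in WT, and the rest over 7.02% in KO and 4.6% in WT. Without receptor genes the start windows of all genes were covered over 2.27% in KO and 2.6% in WT, and the rest over 6.91% in KO and 4.55% in WT. The gene body outside the start windows held 95.8% of the cover of the 42 genes in KO and 96.2% in WT, against 92.4% in KO and 89.9% in WT over all genes. Without receptor genes the shares over all genes were 95.4% in KO and 92.4% in WT, so the KO shares were nearly alike. Of 32 KO islands over genes with a listed start, 0 lay across the start, against 10.3% over all such genes, and of 27 WT islands 1 did, that of Mael, against 14.4%. The regions reach further downstream than upstream, so most islands lie downstream of a start in any set of genes (81.9% in KO and 75.7% in WT over all genes, and 93.8% in KO and 96.3% in WT here). In the first 2 kb from the start 1.68% of the sequence was in KO islands and 4.63% in WT islands, and at 4 to 6 kb these values were 10.5% in KO and 11.2% in WT. For all genes with a listed start they were 2.23% in KO and 2.68% in WT in the first 2 kb, and 2.81% in KO and 3.54% in WT at 4 to 6 kb.

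**Figure D3:**
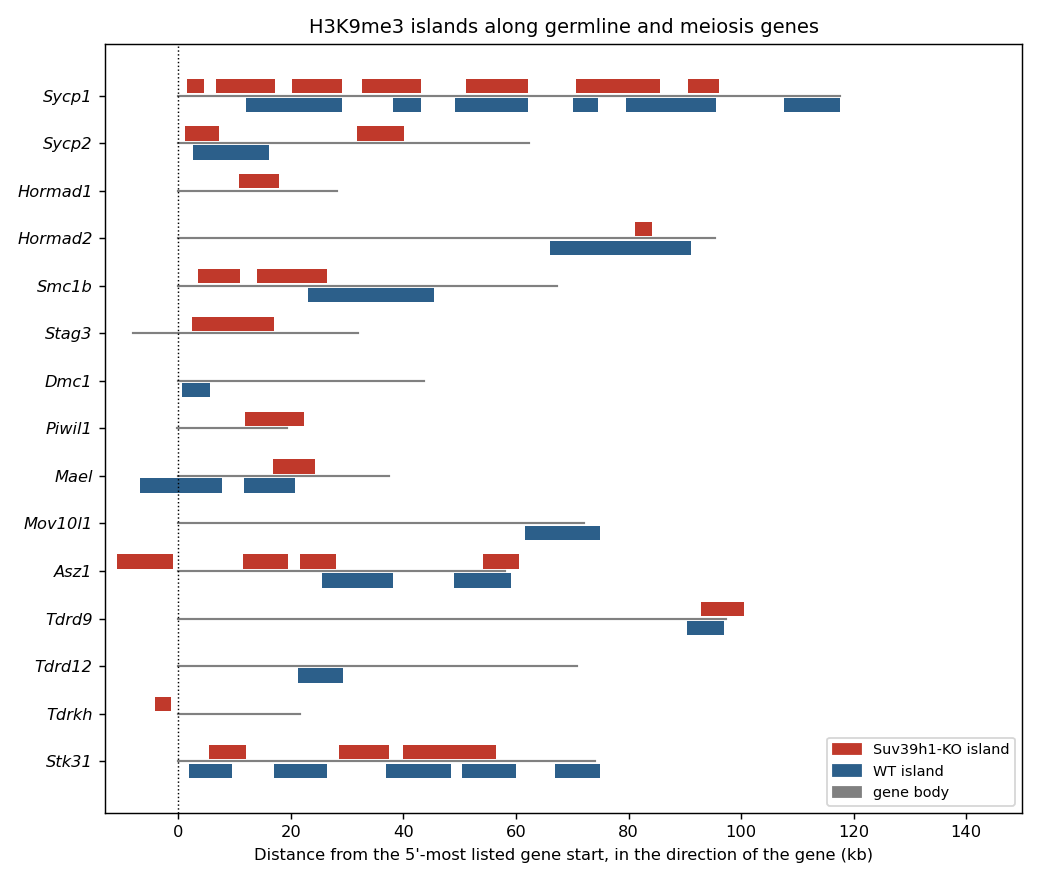
Islands of the Suv39h1-KO list and the WT list drawn along 15 germline and meiosis genes, aligned at the listed gene start (kb, in the direction of the gene), with the gene body as a grey line. Islands lie downstream of the start in most genes, with 2 upstream islands in KO and 1 island across the start in WT, at Mael. Mei4 is left out for its length, and Meiob and Tex15 for want of a listed start.

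**Figure D4:**
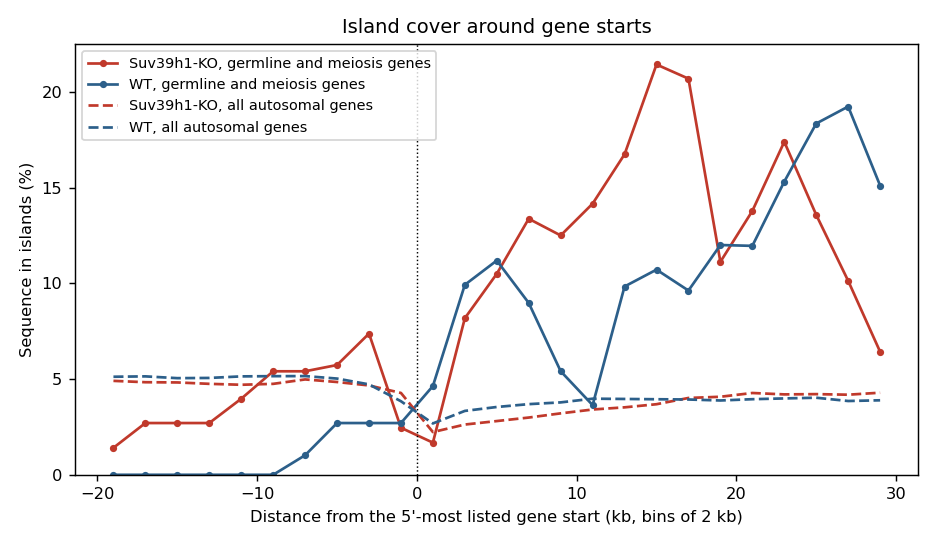
Share of sequence in islands (%) in bins of 2 kb around the gene start, for germline and meiosis genes (solid) and all autosomal genes with a listed start (dashed), in Suv39h1-KO and WT. Bins past the start use only genes long enough to fill them, so 37 germline genes enter at the start and fewer further on, and in the first bin cover is 1.68% in KO and 4.63% in WT.

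The sequence around the genes was read in the same way. In the 500 kb on each side of the regions, median cover was 1.2% in KO and 1.98% in WT for the 42 genes, against 2.45% in KO and 3.52% in WT for all autosomal genes. For the 14 genes with a KO island the median in KO was 2.74%, and for the 28 without 1.08%. For the 13 genes with a WT island the median in WT was 1.65%, and for the 29 without 2%. Cover of the gene exceeded that of its surroundings in 13 of the 14 genes with a KO island, Mei4 being the exception, and in 13 of 13 with a WT island. Having an island is what selected these genes, so the counts describe them only. Sycp2 had no other cover within 500 kb in either list, and Stk31 had 0.6% in KO and 5.1% in WT around it. Asz1 and Mei4 lay among other KO islands, with 15.5% and 17.9% of the surroundings covered in KO, and 5.91% and 6.9% in WT.

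**Figure D5:**
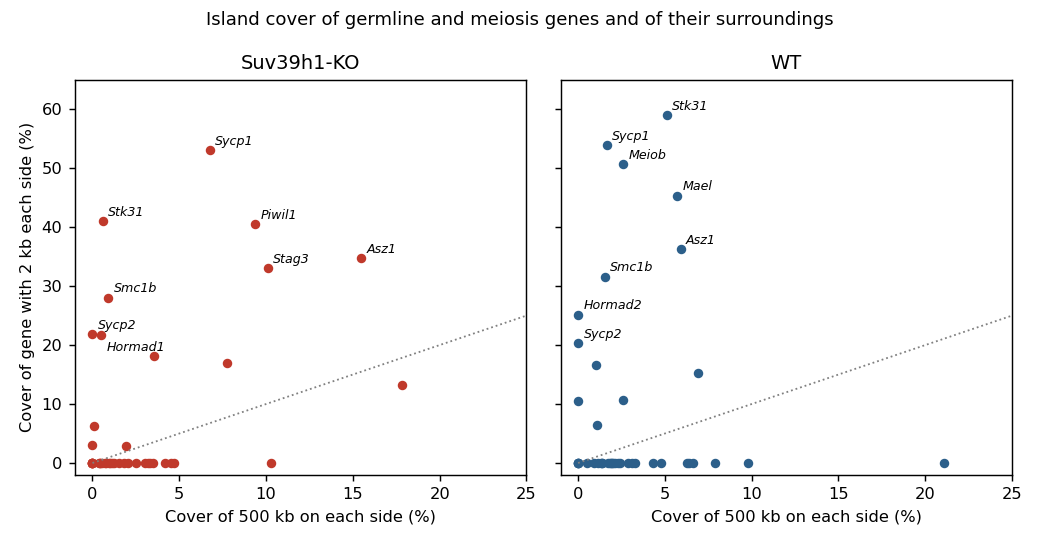
Island cover (%) of each of the 42 genes and their 2 kb flanks, against the cover of the surrounding 500 kb on either side, in Suv39h1-KO (left) and WT (right). The dotted line marks equal cover, and genes with at least 20% are named. Of the genes with an island, Mei4 in KO is the only one below the line.

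A larger share of the islands over these genes than of all autosomal islands, which include islands away from genes, overlapped an island of the other genotype. Of 33 KO islands over the genes, 20 (60.6%) overlapped a WT island, against 24.9% of all autosomal KO islands. Of 29 WT islands, 18 (62.1%) overlapped a KO island, against 48% of all. Several of these islands belong to the same gene and are not independent. Counted by gene the contrast was smaller. Of the 14 genes with a KO island 9 also had a WT island, against 1651 of 2991 over all genes. Of the 13 genes with a WT island 9 also had a KO island, against 1651 of 3043. All 9 genes covered in both lists shared sequence, 110 kb in all, which was 50.8% of their KO cover and 40.1% of their WT cover. The shared part of the joint cover ran from 8.97% at Smc1b to 52.9% at Sycp1. Single islands over the genes were of ordinary size, with a median of 8 kb and 41.3 reads per kb in KO, against 9 kb and 40.1 for the whole KO list. In WT the medians were 10.5 kb and 42.9 reads per kb, against 10 kb and 40.4 for the whole WT list.

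Other germline genes, listed with earlier results of these data known, were read by the same rules. Of 23 further meiosis genes, 6 had an island in KO (26.1%, against 14.5% of all genes) and 10 in WT (43.5%, against 14.8%). Ankrd31, which acts in the placing of meiotic DNA breaks, had 63.5 kb in KO and 35 kb in WT. The helicase gene Hfm1 had 18 kb in KO and 14.5 kb in WT, the recombination gene Spata22 had 15.6 kb in KO and 16 kb in WT, and the cohesin gene Rad21l had 9 kb in KO and 17.5 kb in WT. Near the start, 4 of the 23 had an island in KO, against 7% of all genes, and 7 of 23 in WT (30.4%), against 6.49%. Rad21l was among them, with 2.47 kb in KO and 3.97 kb in WT. Over the 42 genes the same count was 4 in each list. Among the 19 of the 23 with a listed start, 4 had an island near it in KO, against 6.54% of all such genes. In WT 6 of the 19 did, against 6.07%. Of 24 further piRNA and germ cell genes, 3 had an island in KO and 3 in WT (12.5% in each), against 14.5% and 14.8% of all genes. By length, 9.79% of their regions was covered in KO and 19.7% in WT, against 6.72% and 4.5% over all genes. These further lists were not read beside genes of like length. Near the start, or near either end where no start is listed, 1 of the 24 had an island in KO, against 7% of all genes. In WT 2 did, against 6.49%. Among the 17 with a listed start the counts were 0 in KO and 0 in WT, so these islands cannot be placed at a start. Rnf17, a Tudor domain gene, had 24.9 kb in KO and 52 kb in WT, and Boll, of the Dazl family, had 19 kb in KO and 40 kb in WT. Adad1 had 27.4 kb in WT alone and Fkbp6 15.5 kb in KO alone.

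Of 24 genes of spermatids and sperm, 3 had an island in KO (12.5%, against 14.5% of all genes). In WT 2 did (8.33%, against 14.8%). The 3 genes were Spata16, with 144 kb in KO and 8.50 kb in WT, Zpbp, with 41.5 kb in KO and 63 kb in WT, and Crisp2, with 6 kb in KO alone. By length, 21.4% of the regions of the 24 genes was covered in KO and 7.99% in WT, against 6.72% and 4.5% over all genes. Like length was not matched here either. Among 12 genes of the PRC1.6 complex, 1 had an island in each list (8.33%), against 14.5% of all genes in KO and 14.8% in WT. This was Ring1, with 3.21 kb in KO and 2.71 kb in WT, and the 11 others had none.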

How the data were processed

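H3K9me3 islands of 1 Suv39h1-KO and 1 WT library were analysed, grouped by genotype and antibody in the labels, and the 2 input libraries were not used here. Per the submitters' processing notes, Bowtie2, SICER 1.1 and mm10 were used. The sources used here give no window, gap, threshold, duplicate handling or use of the input. Each deposited list holds a whole-number count per island, read as ChIP reads, with no scaling by the authors per its values. The list has a grid of 500 bp and gaps of at least 2000 bp. Ends were read as the last base, and positions converted to count from 1.

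Genes came from RefSeq, assembly GRCm38.p6. Autosomal genes starting before 3 Mb, where mouse autosomes are gap, lie on scaffolds, and 105 were left out. Starts and strands came from the RefSeq promoter table (37 of 42 genes, 16457 of 20560 overall), and both gene ends were used elsewhere. Genes with several listed starts were measured from the 5′-most one for distances, while windows took all starts. The annotation gave no exons, so cover is not split into exons and introns.

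The members and all lists were chosen with earlier results of these data known. Every member with an island is named, and of the others those nearest to one. From other lists up to 4 genes with the longest cover are named. Interval code was tested on simulated data. Python 3.11.15, numpy 2.4.6 and matplotlib 3.10.9 were used. Other flanks, window widths and island filters were tried.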

Additional observations from a re-analysis of the deposited data

How the results depend on the processing

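No paired analysis was possible because there is 1 library per genotype. Filters that drop islands lower counts by construction. Keeping the KO islands with most reads, to the WT number, left 9 of 42 genes with an island in KO, against 8.89% of all genes (1827). It left 3 genes in KO alone, 7 in WT alone, 157 kb of KO cover and a KO minus WT difference of -162 kb. At the start it left 1 of 42 genes with a KO island, against 4.3% of all genes. Keeping the KO islands with most reads per kb left 173 kb in KO, a difference of -146 kb, and 1955 of all genes. Using the denser islands, those above their list's median density, left 173 kb in KO and 196 kb in WT, a difference of -22.7 kb rather than -58.2 kb, and 1978 of all genes in KO and 1948 in WT. WT cover of the 42 genes exceeded KO cover in every setting run. Settings that reduced the KO list alone could not have given another outcome, and keeping islands of at least 2 kb left the difference at -58.2 kb. Near the start the counts depend on the window. With 1 kb on each side, 1 of 42 genes had an island in KO, against 5.74% of all genes. In WT 2 did, against 5.06%. With 5 kb the counts were 7 in KO, against 9.24%, and 5 in WT, against 9.28%. Asking for 1 kb of cover gave 1 in KO, against 5.77%, and 2 in WT, against 5.07%. Without flanks 13 of 42 genes had an island in KO, against 13% of all genes, and 13 in WT, against 13.2%. With flanks of 10 kb the counts were 15 in KO, against 18.6%, and 13 in WT, against 19.8%. Counting only listed starts, or the gene boundary as start, and leaving out olfactory and vomeronasal receptor genes (2342 of 19106 in KO, 2668 in WT, and the start and promoter shares without them) were chosen after the data were seen. Depth outside islands is unknown, so a gene without an island cannot be called free of the mark.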
